A study of Mus musculus with 6 samples.

Results

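Glutathione S-transferases and antioxidant enzymes were followed in the mouse uterus with and without an intact Nat10 gene. The group held 45 genes of the 20637 listed for each library. It was taken by gene symbol, and all 45 symbols were found in all 6 libraries. The genes were selected on function, with the FPKM of these same libraries already compared between the 2 groups, so the differences given here for them are descriptions, and no test on them is read as a result. The 7 genes of the Gstm cluster are described apart from the other 38.

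Poly(A) RNA from the whole uterus of female mice was sequenced on postnatal day 21. Of the 6 libraries, 3 came from Nat10 f/f mice, whose Nat10 alleles are flanked by loxP sites, and 3 from Nat10 d/d mice, in which Nat10 is deleted. Nat10 encodes an acetyltransferase that modifies cytidines in RNA. The Cre driver, the deleted exons, the cells that carry the deletion and the strain are not given in the sources used here, and nothing in the labels says that libraries of a group came from separate animals, so the spread between them may be technical. Nat10 was listed at 13.2, 16.4 and 9.95 FPKM in f/f replicates 1, 2 and 3 and at 5.57, 5.23 and 5.53 FPKM in d/d replicates 1, 2 and 3. The groups did not overlap. Its log2 change of -1.11 (SE 0.17) had an adjusted p of 0.669 by limma and an exact permutation p of 0.1, the smallest possible with 3 libraries a group. FPKM are fragments scaled to transcript length and to the mapped fragments of the library, and a log2 change is the d/d mean minus the f/f mean of log2(FPKM + 1).

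Glutathione S-transferases join the tripeptide glutathione to reactive compounds, which makes these easier to export from the cell. Peroxidases, peroxiredoxins, catalase and superoxide dismutases remove hydrogen peroxide, lipid peroxides and superoxide. The glutathione and thioredoxin systems supply electrons to the peroxidases and peroxiredoxins. Many of the genes are known targets of the transcription factor Nrf2, which the adaptor Keap1 holds at a low level and which binds DNA at antioxidant response elements.

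Gstm7 and Gstm5, 2 neighbouring genes for mu-class enzymes, lay higher in all 3 d/d libraries than in any f/f library, while the abundant Gstm1 and Gstm2 overlapped between the groups. Outside the cluster, Sod1 lay higher and Cat lower in d/d with no overlap. Of all 12640 tested genes, 6.12% lay higher and 4.6% lower without overlap. With all libraries and a pseudocount of 1, no compared member outside the cluster had a log2 change of 0.5 or more in size, but some did under other settings, such as Gsta3 (0.68 with a pseudocount of 0.1), Gpx3 (0.84 without d/d replicate 2), Gstk1 and Sod3 (-0.75 and -0.72 with array quality weights). By limma, 0 of 12640 tested genes passed an adjusted p of 0.05 (0%), members included, and 630 genes (4.98%) had an unadjusted p under 0.05, of which 3 were members. Libraries of whole uterus mix many cell types, so fewer cells of a type and less RNA per cell cannot be told apart.

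The upstream sequences of Gstm5 and Gstm7 are shown because these are the 2 cluster genes whose groups did not overlap among those compared. Both are from the mouse reference of RefSeq (GRCm38.p6), end at the last base before the annotated gene start in GENCODE, and read in the direction of the gene. Capitals mark TGACNNNGC, the core letters of the antioxidant response element, searched on both strands. That of Gstm5 is chr3:107895604-107895820 on the plus strand and that of Gstm7 is chr3:107931818-107932067 on the minus strand.
Gstm5: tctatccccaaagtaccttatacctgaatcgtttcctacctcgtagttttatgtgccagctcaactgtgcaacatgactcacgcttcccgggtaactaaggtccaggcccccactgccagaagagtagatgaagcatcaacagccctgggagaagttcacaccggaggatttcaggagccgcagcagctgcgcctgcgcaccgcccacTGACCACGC
Gstm7: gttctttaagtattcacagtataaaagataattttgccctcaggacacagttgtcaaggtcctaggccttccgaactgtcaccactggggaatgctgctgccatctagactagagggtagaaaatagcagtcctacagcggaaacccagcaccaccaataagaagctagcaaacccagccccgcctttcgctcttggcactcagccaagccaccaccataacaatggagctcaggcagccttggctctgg
The Gstm5 sequence ended on a match, and the Gstm7 sequence held 0 matches.

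Windows of 250 bases before to 50 after the RefSeq start were available for 38 of the 45 genes, and 10 of the 38 held TGACNNNGC. Of all 27025 genes with a window, 14% held it, and of all 32851 windows 12.4% did. In the Gstm cluster 2 of 12 windows had a match, that of Gstm5 and that of Gstm7. The Gstm5 match, at chr3:107895812-107895820, lies 42 bases before the RefSeq start and just before the GENCODE start. The Gstm7 match, at chr3:107931735-107931743, lies 129 bases before a RefSeq start but 74 bases inside the GENCODE gene, in the untranslated part of the first exon of transcript Gstm7-201. Matched stretches of 29 bases are shown for the genes that did not overlap between groups and had a match, and for 3 known Nrf2 targets picked because they had a match, each on the strand of the match with the match in capitals.
Gstm5: caccgcccacTGACCACGCggagggcggg
Gstm7: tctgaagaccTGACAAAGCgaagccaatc
Sod1: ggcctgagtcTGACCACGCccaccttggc
Gclm: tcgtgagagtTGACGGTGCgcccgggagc
Prdx1: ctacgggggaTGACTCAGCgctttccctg
Txnrd1: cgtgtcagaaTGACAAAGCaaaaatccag
Gstm5 and Sod1 shared the same 9 letters, TGACCACGC, and Gstm7 and Txnrd1 shared TGACAAAGC. The other 4 genes with a match were Gsta3, Mgst1, Nfe2l2 and Srxn1. Cat had no match in its window, nor did the known Nrf2 target Nqo1, and no window was available for Gclc or Hmox1. A looser form, TGANNNNGC, which takes in every match of the first, was in 18 of the 38 genes, against 45% of all genes and 41.3% of all windows, with Gstm3 and Gstm4 added in the cluster. The full oestrogen response element and the shared progesterone and glucocorticoid element were in 0 of the 38 genes, against 0.074% and 0.537% of all genes, and the short oestrogen site GGTCA was in 16 of 38, against 43.6% of all genes. A match is a run of letters and not a shown binding site.

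The Gstm cluster lies on chromosome 3 and spans 149.1 kb in the GENCODE annotation of GRCm38, with no other listed gene inside it. Gstm5 (chr3:107895821-107898686) is on the plus strand, and the other 6 follow on the minus strand in the order Gstm7 (chr3:107926334-107931817), Gstm6 (chr3:107938847-107943749), Gstm3 (chr3:107963696-107969283), Gstm2 (chr3:107981702-107986453), Gstm1 (chr3:108012255-108017973) and Gstm4 (chr3:108040408-108044894). Gstm5 and Gstm7 are thus read towards each other, and the other 5 in the same direction as Gstm7. All 7 encode mu-class cytosolic transferases.

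Gstm7 (ENSMUSG00000004035) stood at 37.5, 28.9 and 19.4 FPKM in the f/f libraries and at 86.8, 62.2 and 85.7 FPKM in the d/d libraries. Even the lowest d/d library was above the highest f/f library. The means were 28.6 ± 9.05 FPKM (SD, n = 3) in f/f and 78.2 ± 13.9 FPKM (SD, n = 3) in d/d, a ratio of 2.74. Its log2 change was 1.45 (SE 0.24). Gstm7 also varied widely among the controls, where its coefficient of variation was 31.6%, and only Gsta3 had a larger one among the tested members.

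Gstm5 (ENSMUSG00000004032) stood at 57.1, 51.1 and 49.97 FPKM in f/f and at 85.1, 82.9 and 68.1 FPKM in d/d. The f/f libraries were close together and all 3 d/d libraries were above them. The means were 52.7 ± 3.82 and 78.7 ± 9.21 FPKM (SD, n = 3 each), a ratio of 1.49, and the log2 change was 0.56 (SE 0.13). Of all tested genes, 2.09% had a log2 change of 0.5 or more and 1.17% one of -0.5 or less, and Gstm5 was the member just inside that size.

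Gstm1, the most abundant gene of the cluster, stood at 171, 151 and 185 FPKM in f/f and at 197, 117 and 241 FPKM in d/d. The d/d libraries held both its highest and its lowest value. Its log2 change was 0.07 (SE 0.25) with all libraries and 0.37 without d/d replicate 2, the library with the low value, and it was negative in 3 of 15 alternative settings. Gstm2 stood at 68.0, 59.3 and 61.9 FPKM in f/f and at 56.4, 64.8 and 74.7 FPKM in d/d, which overlap. Its log2 change was 0.04 (SE 0.13), and its sign was negative in 4 of the 15.

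Gstm4 was a low-level gene, at 8.39, 7.18 and 7.40 FPKM in f/f and 7.74, 8.09 and 5.83 FPKM in d/d. Its log2 change was -0.08 (SE 0.14), -0.16 without d/d replicate 2 and 0.05 without d/d replicate 3. Gstm6 stood at 0.658, 0.816 and 0.421 FPKM in f/f and 0.818, 0.587 and 1.14 FPKM in d/d. Gstm3 was listed at 0, 0 and 0.0705 FPKM in f/f and at 0.154, 0.123 and 0.0747 FPKM in d/d. Gstm3 and Gstm6 did not reach 1 FPKM in 3 libraries and were not compared, so 5 of the 7 cluster genes were.

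**Figure D1:**
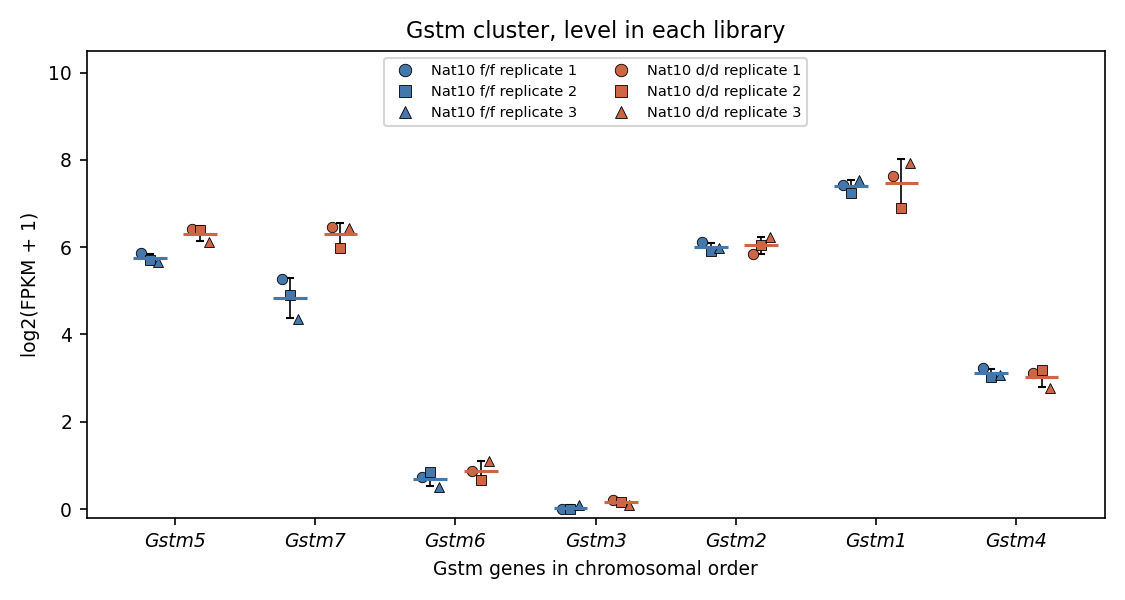
Level of the 7 Gstm genes as log2(FPKM + 1) in each of the 6 libraries, in chromosomal order. Symbols are single libraries, wide lines are group means and bars are the SD over 3 libraries. The f/f and d/d symbols are apart for Gstm5 and Gstm7 and mixed for Gstm2, Gstm1 and Gstm4.

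The order of levels within the cluster differed between the groups. In f/f libraries Gstm1 was followed by Gstm2 (59.3 to 68.0 FPKM), Gstm5 (49.97 to 57.1 FPKM), Gstm7 (19.4 to 37.5 FPKM) and Gstm4 (7.18 to 8.39 FPKM), and no 2 neighbours in that order overlapped. In d/d libraries the ranges of Gstm5 (68.1 to 85.1 FPKM), Gstm7 (62.2 to 86.8 FPKM) and Gstm2 (56.4 to 74.7 FPKM) all overlapped. Gstm7 made up 10.9%, 9.70% and 5.98% of the summed FPKM of the cluster in f/f and 20.0%, 18.5% and 17.99% in d/d. The share of Gstm5 was 16.7%, 17.1% and 15.4% in f/f and 19.6%, 24.7% and 14.3% in d/d, which overlap.

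The sum over the 7 genes, which depends less on how reads of similar copies were shared out, was 343, 298 and 324 FPKM in f/f and 434, 336 and 476 FPKM in d/d. The lowest d/d sum, in replicate 2, was below the highest f/f sum. The means were 322 ± 22.2 and 416 ± 72.0 FPKM (SD, n = 3 each), a log2 ratio of 0.37, and it was 0.26 to 0.50 when a library was left out. Without Gstm5 and Gstm7 the sum was 248, 218 and 255 FPKM in f/f and 262, 191 and 323 FPKM in d/d, with d/d replicate 2 the lowest and d/d replicate 3 the highest of the 6.

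The copies are alike enough for reads to be shared. Coding identity between Gstm7 and the cluster genes other than Gstm5 was 82.0% to 84.9%, and Gstm5 was 67.9% to 70.5% identical to each of the others. The closest pair was Gstm1 and Gstm3, at 89.5%. Of all runs of 50 bases in the main transcript, 23.1% in Gstm1, 28.8% in Gstm3, 11.8% in Gstm6 and 9.36% in Gstm2 also occurred in a transcript of another gene, pseudogenes included. Of runs of 100 bases the shares were 7.73%, 13.8%, 2.47% and 0.622% in the same genes. For Gstm4, Gstm5 and Gstm7 the share was 0% at both lengths. The read length is not given in the sources used here, so how uncertain the levels of the other 4 genes are is not known.

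**Figure D2:**
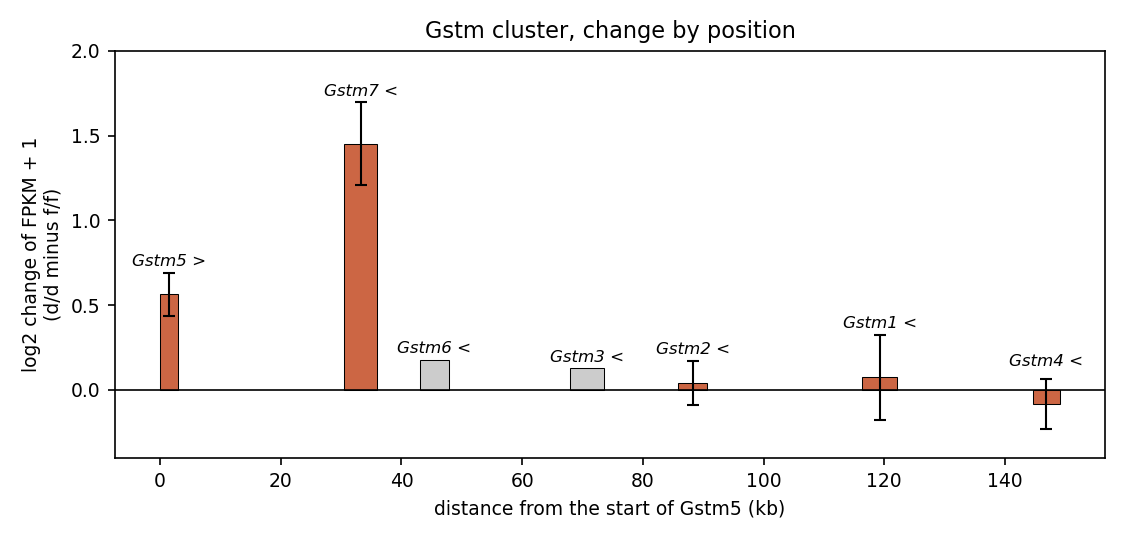
Log2 change of FPKM + 1 (d/d minus f/f) of each Gstm gene against its distance in kb from the start of Gstm5, with bars drawn over the gene's extent and > or < for the plus or minus strand. Error bars are standard errors from limma, and grey bars without them are the low genes Gstm6 and Gstm3. The tall bars are the 2 genes at the left end of the cluster, Gstm7 at 1.45 and Gstm5 at 0.56.

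Genes next to the cluster were read for comparison, 4 on each side. Ahcyl1, 3 genes beyond Gstm5, stood at 56.6, 55.6 and 53.9 FPKM in f/f and 65.4, 59.9 and 59.2 FPKM in d/d, which do not overlap, with a log2 change of 0.15. Csf1, Ampd2 and Gnai3 overlapped between groups, with log2 changes of 0.18, -0.07 and 0.11. Without d/d replicate 2 these were 0.14, -0.27 and 0.03, and Ampd2 was then lower in d/d without overlap. Gnat2 was below 1 FPKM in every library, and Eps8l3, the nearest gene on the Gstm5 side, was listed at 0 in all 6, as were Gm10961 and Gpr61.

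Across the 42 members that could be compared, 29 were higher and 13 lower in d/d. Genes are counted as higher or lower by the sign of the log2 change. The median log2 change was 0.10, and 0.005 without d/d replicate 2. Over all 12640 tested genes 7154 were higher and 5486 lower, with a median of 0.03, and 0.02 without d/d replicate 2. The 3 members not compared were Gstm3, Gstm6 and Mgst2. The cluster had 4 of 5 higher and a median of 0.07, and the others had 25 of 37 higher and a median of 0.12. Libraries of the groups did not overlap for 3 members that were higher in d/d, Gstm5, Gstm7 and Sod1, and for 1 that was lower, Cat. The same held for 6.12% of all tested genes in the higher and 4.6% in the lower direction, 10.7% in all. At an unadjusted limma p under 0.05, 2 members were higher (Gstm7 and Gstm5) and 1 was lower (Cat), beside 2.68% and 2.3% of all tested genes. Nothing is read from these counts, since the contrast was known when the genes were chosen.

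**Figure D3:**
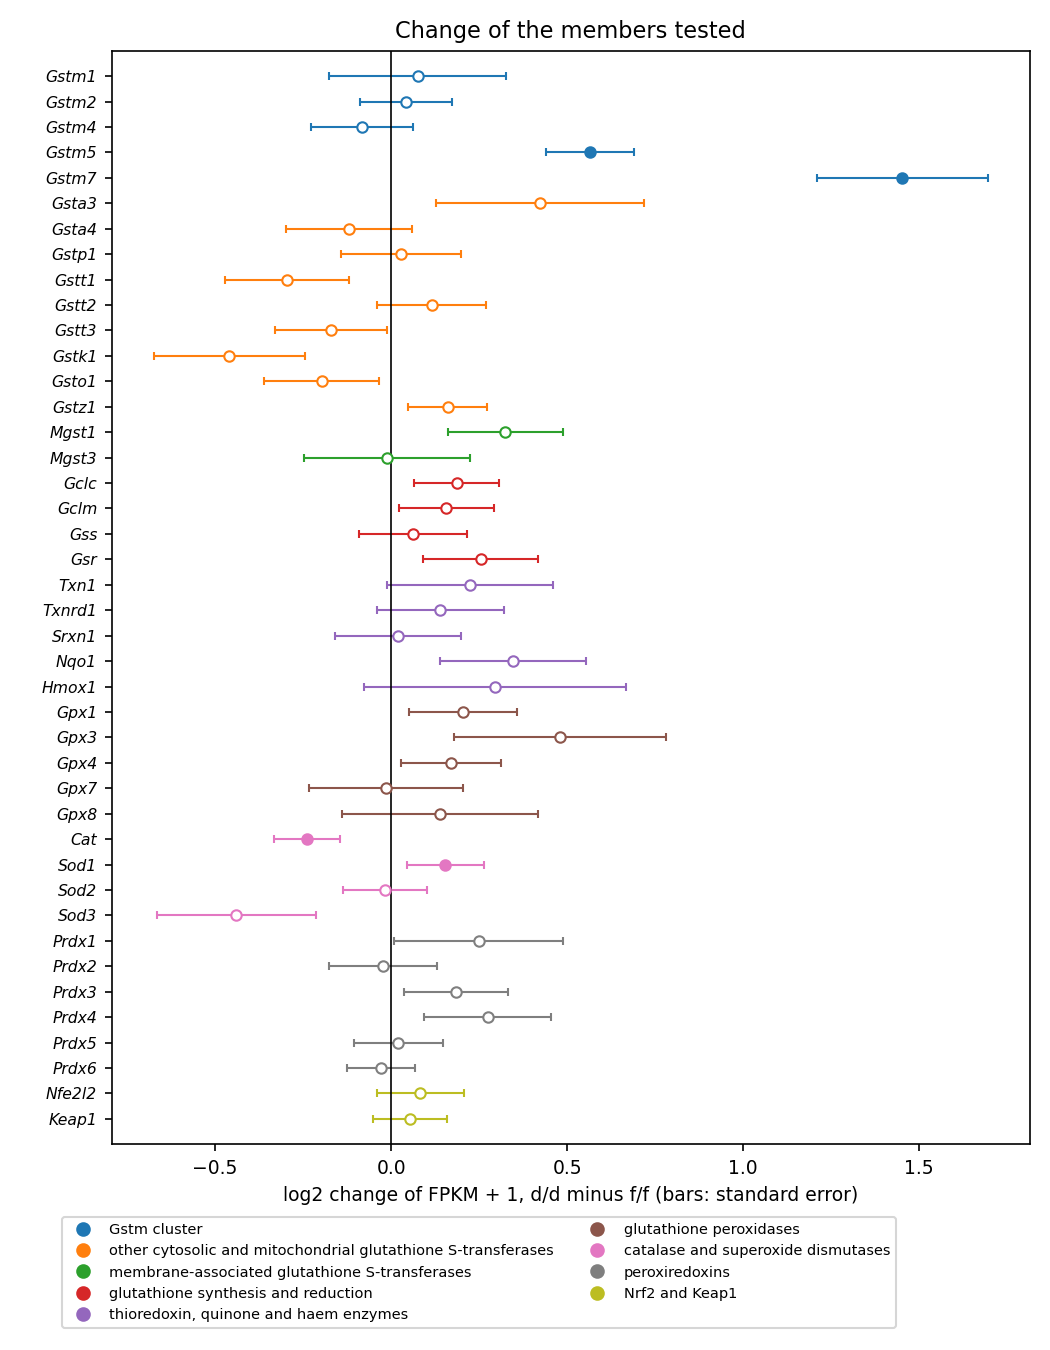
Log2 change of FPKM + 1 (d/d minus f/f) of the 42 members compared, coloured by role, with standard errors from limma as bars. Filled points are the 4 members whose f/f and d/d libraries do not overlap. Gstm7 and Gstm5 lie beyond 0.5, and all others lie between -0.46 and 0.48.

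The 9 other cytosolic and mitochondrial transferases showed no common direction, with 4 higher and 5 lower in d/d. The abundant ones were Gsto1, an omega-class enzyme that also reduces dehydroascorbate, and Gstp1, the pi-class enzyme. Gsto1 ranged from 236 to 300 FPKM in f/f and from 192 to 270 FPKM in d/d, and Gstp1 from 185 to 231 and from 188 to 269 FPKM. Gstp1 has a near-identical copy, Gstp2, so the level of each is uncertain. Gsta4, which conjugates products of lipid peroxidation, ranged from 64.8 to 79.2 FPKM in f/f and from 54.8 to 86.3 FPKM in d/d.

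Gstk1, the kappa-class enzyme of mitochondria and peroxisomes, had a log2 change of -0.46 (SE 0.21). It stood at 18.3, 13.1 and 20.0 FPKM in f/f and at 9.28, 15.5 and 11.9 FPKM in d/d. The groups overlapped through f/f replicate 2 and d/d replicate 2. Without d/d replicate 2 they did not. The log2 change was between -0.63 (without d/d replicate 2) and -0.29 (without d/d replicate 1) when a library was left out. The theta-class genes Gstt1, Gstt2 and Gstt3 had log2 changes of -0.30, 0.12 (0.04 without d/d replicate 2) and -0.17, and Gstz1, the enzyme of tyrosine breakdown that isomerises maleylacetoacetate, had one of 0.16, all with overlap.

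Gsta3, an alpha-class gene, was the member just inside the filter of 1 FPKM in 3 libraries. It stood at 1.21, 0.806 and 0.593 FPKM in f/f and at 1.75, 0.630 and 2.42 FPKM in d/d, high in d/d replicates 1 and 3 and low in replicate 2. The log2 change of Gsta3 was 0.42 (SE 0.30), 0.73 without d/d replicate 2, 0.19 without d/d replicate 3 and 0.68 with a pseudocount of 0.1. Just outside was Mgst2, a membrane-bound transferase that can make leukotriene C4, with 2.17 FPKM in f/f replicate 2, 1.66 FPKM in d/d replicate 3 and 0.0986 to 0.390 FPKM in the other 4. Mgst1, the abundant microsomal transferase, stood at 94.9, 92.4 and 69.5 FPKM in f/f and 123.5, 93.8 and 104.0 FPKM in d/d, so that only d/d replicate 2 reached into the f/f range. Its log2 change was 0.32 (SE 0.16), and 0.18 without f/f replicate 3. Mgst3 ranged from 10.7 to 13.2 FPKM in f/f and from 8.98 to 17.3 FPKM in d/d.

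Genes for making and recycling glutathione had a higher d/d mean in 4 of 4 with all libraries, with overlap in each. Gclc and Gclm, the catalytic and modifier subunits of glutamate-cysteine ligase, which sets the rate of glutathione synthesis, had log2 changes of 0.19 and 0.16. Gss, which adds glycine to finish the tripeptide, had one of 0.06, and Gsr, which reduces oxidised glutathione, one of 0.25. Of the 4, 3 were highest in d/d replicate 2, and without it Gss was at -0.04 and Gsr at 0.08. For Gsr the values were 14.7, 16.7 and 14.4 FPKM in f/f and 16.4, 23.6 and 15.9 FPKM in d/d.

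The thioredoxin, quinone and haem enzymes were all highest in d/d replicate 2, 5 of 5. Txn1, thioredoxin itself, stood at 118, 128 and 99.6 FPKM in f/f and at 125, 192 and 99.9 FPKM in d/d. Hmox1, the inducible haem oxygenase, stood at 3.70, 4.33 and 4.80 FPKM in f/f and at 3.98, 11.5 and 3.32 FPKM in d/d, so d/d replicates 1 and 3 were within or below the control range. Its log2 change was 0.29 (SE 0.37) with all libraries, -0.18 without d/d replicate 2 and 0.58 without d/d replicate 3. Txnrd1, which reduces thioredoxin, and Srxn1, which restores overoxidised peroxiredoxins, had log2 changes of 0.14 and 0.02, and were at 45.7 and 12.6 FPKM in d/d replicate 2 against at most 35.6 and 10.02 FPKM in any other library. Without d/d replicate 2 the log2 changes were -0.05 for Txnrd1 and -0.18 for Srxn1, and that of Txn1 was -0.04 in place of 0.22.

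Nqo1, a quinone reductase often used as a readout of Nrf2, stood at 5.07, 4.25 and 3.93 FPKM in f/f and at 6.73, 7.30 and 4.03 FPKM in d/d. Here d/d replicates 1 and 2 were high and replicate 3 was within the control range. The log2 change was 0.35 (SE 0.21), 0.21 without d/d replicate 2 and 0.57 without d/d replicate 3.

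Among glutathione peroxidases, Gpx3, the secreted plasma form, had a log2 change of 0.48 (SE 0.30) and was the member just outside a size of 0.5. It stood at 29.0, 35.1 and 33.7 FPKM in f/f and at 50.6, 27.2 and 68.9 FPKM in d/d, where replicates 1 and 3 were above and replicate 2 below all controls. Its log2 change moved from 0.48 to 0.84 without d/d replicate 2 and to 0.19 without d/d replicate 3. Gpx1, the main cytosolic form, ranged from 188 to 244 FPKM in f/f and from 217 to 276 FPKM in d/d, and Gpx4, which reduces lipid peroxides in membranes, from 207 to 243 and from 222 to 298 FPKM. The forms of the endoplasmic reticulum, Gpx7 and Gpx8, were highest in d/d replicate 2, at 38.4 and 114.9 FPKM, with log2 changes of -0.01 and 0.14, which were -0.27 and -0.12 without that library.

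Cat, the peroxisomal enzyme that splits hydrogen peroxide, stood at 40.9, 40.2 and 40.0 FPKM in f/f and at 34.3, 34.9 and 32.9 FPKM in d/d. Both groups were tight, and every d/d library was below every f/f library. The means were 40.4 ± 0.503 and 34.0 ± 1.02 FPKM (SD, n = 3 each), and the log2 change was -0.24 (SE 0.09).

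Sod1, the cytosolic superoxide dismutase, was the most abundant of the 45 genes in the controls, at 333, 329 and 328 FPKM, and stood at 353, 399 and 353 FPKM in d/d. All d/d libraries were above the controls, by a small amount in replicates 1 and 3. The log2 change was 0.15 (SE 0.11) and was 0.10 without d/d replicate 2 and 0.08 after quantile normalization. Sod2, the mitochondrial form, had a log2 change of -0.02, and of -0.11 without d/d replicate 2. Sod3, the extracellular form, stood at 21.04, 13.1 and 22.6 FPKM in f/f and at 10.6, 15.7 and 14.2 FPKM in d/d, where f/f replicate 2 lay among the d/d libraries, with a log2 change of -0.44 (SE 0.23), which was -0.67 without that library and -0.29 without d/d replicate 1.

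The peroxiredoxins remove peroxides with a reactive cysteine. Of the 6, 4 were higher and 2 lower in d/d, all with overlap, and 5 were highest in d/d replicate 2. Prdx1, a cytosolic form, stood at 183, 182 and 141 FPKM in f/f and at 192, 281 and 146 FPKM in d/d. Prdx4, the form of the endoplasmic reticulum, had a log2 change of 0.27, and the mitochondrial Prdx3 had 0.18. Without d/d replicate 2 these were 0.16 and 0.06. Prdx2, Prdx5 and Prdx6 were within 0.03 of 0 on the log2 scale with all libraries, and at -0.18, -0.05 and -0.04 without d/d replicate 2.

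Nfe2l2, which encodes Nrf2, stood at 56.5, 56.2 and 52.6 FPKM in f/f and at 62.7, 50.1 and 63.3 FPKM in d/d. It was higher than all controls in d/d replicates 1 and 3 and lower than all in replicate 2, the library in which the thioredoxin and quinone genes were highest. The log2 change was 0.08 (SE 0.12), 0.19 without d/d replicate 2 and 0.03 without d/d replicate 3. Keap1 stood at 25.2, 28.0 and 28.1 FPKM in f/f and at 27.0, 30.0 and 27.5 FPKM in d/d. Its log2 change was 0.05 (SE 0.10), and between 0.003 and 0.08 when a library was left out. Levels of these transcripts do not measure Nrf2 protein or its activity.

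Nat10 d/d replicate 2 stood apart for many members. It was the highest of the 6 libraries for 23 of the 42 members and the lowest for 5, against 30.1% and 25.7% of all tested genes. By role, the median deviation from the f/f mean in d/d replicates 1, 2 and 3 was -0.07, 0.62 and -0.20 log2 units for the thioredoxin, quinone and haem enzymes, and 0.04, 0.36 and -0.04 for the peroxiredoxins. It was 0.26, 0.37 and -0.05 for the glutathione peroxidases and 0.23, 0.07 and 0.37 for the compared Gstm genes. Summed FPKM of 8 proliferation markers moved with that library, at 70.4, 17.4 and 41.5 in f/f and 14.8, 160 and 8.09 in d/d. The part of this in the antioxidant genes was not tested.

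**Figure D4:**
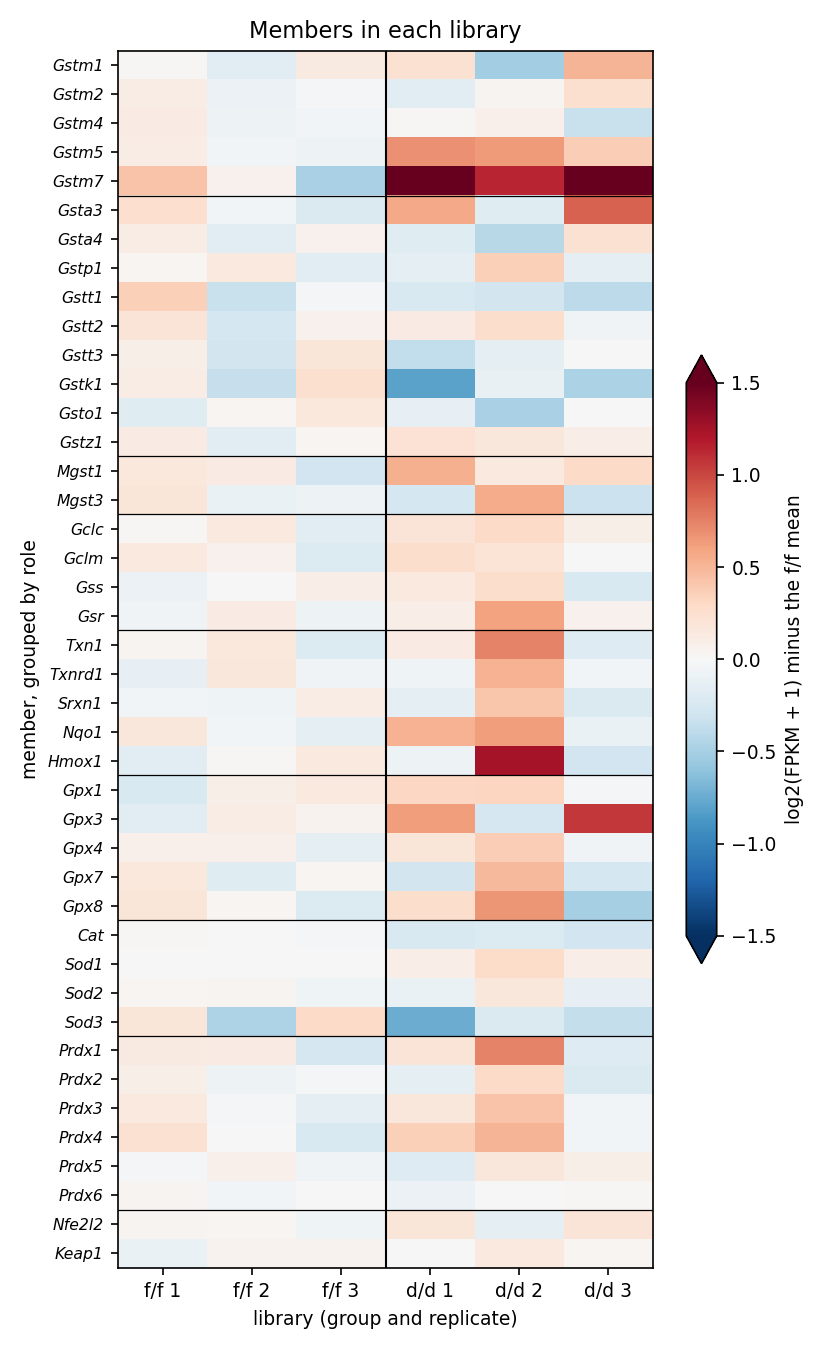
Each compared member (rows, grouped by role) in each library (columns) as log2(FPKM + 1) minus the f/f mean, with red above and blue below that mean and colours held at 1.5. The Gstm7 and Gstm5 rows are red in all 3 d/d columns, and the thioredoxin, quinone and haem rows are red mainly in d/d replicate 2, where Hmox1 is darkest.

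Without d/d replicate 2, 15 members had groups that did not overlap, 8 higher and 7 lower, beside 17.4% and 14.4% of all tested genes. With fewer libraries more genes separate. The 8 higher were Gstm1, Gstm5, Gstm7, Gsta3, Mgst1, Gpx3, Sod1 and Nfe2l2, and the 7 lower were Gstk1, Mgst3, Srxn1, Gpx7, Cat, Sod2 and Prdx2. The median log2 change of the members outside the cluster was then -0.04 in place of 0.12, and that of the compared Gstm genes 0.37 in place of 0.07. By limma without that library, 12 genes (0.0949%) passed an adjusted p of 0.05, and none of the 12 was a member. With array quality weights, which give libraries that depart from the others less weight, 316 genes (2.5%) passed, 3 of them members, and nothing is read from that count for the same reason as above.

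Markers of cell types were summed in the same way. Of the endothelial markers 6 of 6 and of the stromal markers 7 of 7 were lower in d/d. Endothelial sums were 238 to 268 FPKM in f/f and 206 to 227 FPKM in d/d, and stromal sums 2120 to 2308 and 1898 to 2085 FPKM. Epithelial sums were 614 to 708 FPKM in f/f and 666 to 790 FPKM in d/d, with 5 of 8 markers higher, among them Cldn7 and Epcam without overlap, and Foxa2 lower without overlap. Smooth muscle sums were 4084 to 4696 and 3802 to 4854 FPKM, so the defining markers of uterine wall were present in every library. Leukocyte sums (73.7 to 103 and 69.7 to 95.7 FPKM) overlapped. Mesothelial sums (26.0 to 39.0 and 24.6 to 29.7 FPKM) overlapped too. However, 3 of the 4 mesothelial markers were lower in d/d, Msln and Lrrn4 without overlap, with a median log2 change of -0.41. Fat markers summed to 33.5 FPKM in f/f replicate 1 and to 0.318 to 5.85 FPKM elsewhere, and 7 red cell genes to 852 to 5582 FPKM in f/f and 709 to 1723 FPKM in d/d. Ovary and oviduct markers summed to at most 14.2 and 6.79 FPKM, with Zp3, Fshr and Sntn listed at 0 throughout. The part of tissue makeup in the Gstm7, Gstm5 and Cat differences was not tested.

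Related genes outside the group were read from 7 lists, 95 genes of which 82 were tested. Of these, 49 were higher and 33 lower in d/d, with a median log2 change of 0.04, which was 0.015 without d/d replicate 2. By limma, 0 of the 82 passed an adjusted p of 0.05. At an unadjusted limma p under 0.05, 1 was higher and 3 were lower, beside 2.68% and 2.3% of all tested genes. Of 20 other Nrf2 targets, such as the enzymes that supply NADPH, 15 were higher and 5 lower, none without overlap. Their median was 0.06, and 0.03 without d/d replicate 2, which was the highest library for 10 of the 20. The largest changes were 0.30 for Cbr3, a carbonyl reductase, and 0.27 for Me1, malic enzyme. The 10 partners and repressors of Nrf2 had 4 higher and 6 lower, with Maff, a small Maf partner, at 0.36 and Rbx1, a subunit of the ligase that marks Nrf2 for breakdown, at 0.26. These 4 values depended on single libraries. Without d/d replicate 2 Me1 was at 0.06, Rbx1 at 0.15 and Maff at 0.73, and without d/d replicate 3 Me1 was at 0.51, Rbx1 at 0.42, Maff at 0.05 and Cbr3 at 0.11.

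Among 8 tested other transferases and peroxidases, Gpx2, the epithelial peroxidase of the gut, stood at 2.57, 3.70 and 4.55 FPKM in f/f and at 5.27, 10.2 and 6.87 FPKM in d/d. All 3 d/d libraries were above the controls, and the log2 change was 0.85 (SE 0.25). Gstp2, the copy of Gstp1, had a log2 change of 0.74 (SE 0.50) that rested on f/f replicate 1, at 3.36 FPKM against 14.4 to 20.5 FPKM elsewhere, and it was 0.08 without that library. In the list of 13 tested genes for glutathione breakdown and supply, 6 were higher and 7 lower.

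Cbs, the enzyme that turns homocysteine towards cysteine, a building block of glutathione, stood at 11.8, 9.53 and 8.51 FPKM in f/f and at 4.94, 4.72 and 7.92 FPKM in d/d. The groups did not overlap, and the log2 change was -0.69 (SE 0.20). Oplah, which opens the oxoproline ring in glutathione turnover, stood at 11.0, 8.73 and 10.4 FPKM in f/f and at 7.65, 5.96 and 8.40 FPKM in d/d, again without overlap, with a log2 change of -0.41 (SE 0.15). Sesn2 and Sesn3, which encode sestrins, had log2 changes of 0.67 (SE 0.31) and -0.50 (SE 0.27) with overlap, and Sesn2 was highest in d/d replicate 2, at 12.7 FPKM. Without that library Sesn2 was at 0.30, and without d/d replicate 1 Sesn3 was at -0.17, while array quality weights gave 0.19 and -1.03. The 17 tested genes of that list had 10 higher and 7 lower.

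Of the 6 tested genes of the aryl hydrocarbon and xenobiotic receptors, 3 were higher and 3 lower. Cyp1b1, an oxidase induced by the aryl hydrocarbon receptor, stood at 3.83, 2.94 and 3.47 FPKM in f/f and at 6.57, 2.02 and 9.91 FPKM in d/d, with d/d replicates 1 and 3 above and replicate 2 below the controls, as for Gpx3. Its log2 change was 0.52 (SE 0.42), 1.05 without d/d replicate 2 and 0.12 without d/d replicate 3. Por, which passes electrons to such oxidases, had one of -0.20, from -0.35 to -0.09 when a library was left out. The receptor gene Ahr, named after its values were seen, did not overlap between groups, with a log2 change of 0.09. Of 8 genes for selenoprotein synthesis, on which glutathione peroxidases and thioredoxin reductases depend, 6 were higher, and Trnau1ap, at 28.5, 33.1 and 28.3 FPKM in f/f and 38.2, 35.2 and 34.0 FPKM in d/d, did not overlap, with a log2 change of 0.25. Eefsec, the elongation factor for selenocysteine, had one of -0.27 with overlap, from -0.43 to -0.16 when a library was left out.

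**Figure D5:**
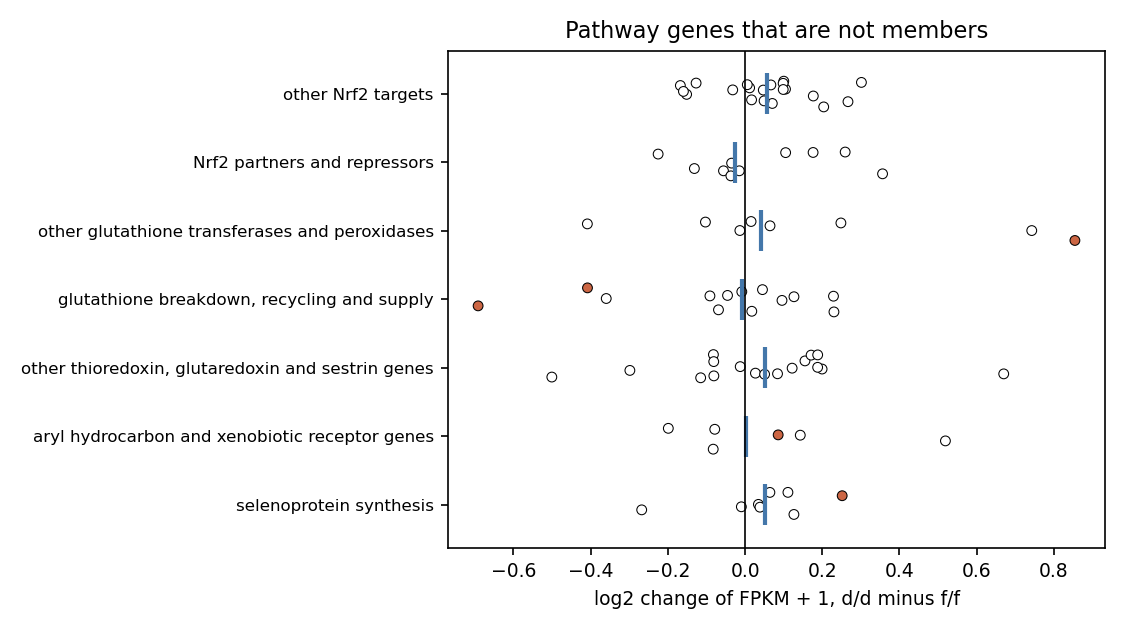
Log2 change of FPKM + 1 (d/d minus f/f) of the 82 tested related genes in 7 lists, 1 point a gene, with the list median as a blue line. Filled points are the 5 genes whose groups do not overlap, beside 10.7% of all tested genes. The medians lie between -0.02 and 0.06.

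In the controls, the members covered a wide range of levels. Sod1 was the highest, at a mean of 330 FPKM, then Gsto1 at 270, Gpx4 at 230, Gpx1 at 222 and Gstp1 at 210 FPKM, and these 4 overlapped with each next one among them, while Sod1 lay above Gsto1 and Gstp1 above Gstm1 without overlap. Gstm1 at 169 and Prdx1 at 169 FPKM followed and overlapped with each other. Gstm7 was the 24th of the 45, at 28.6 FPKM, next to Txnrd1 at 31.6 and Gpx7 at 27.2 FPKM. The median coefficient of variation of the compared members was 11.2% in f/f and 17.4% in d/d, beside 9.46% and 16.1% over all tested genes.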

How the data were processed

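The deposited tables hold 1 value per gene and library, not whole numbers, which were read as FPKM made by the authors. The unit follows from the tool names and the range of the values, and no header states it. Alignment and quantification used HISAT2 2.2.1 and Cufflinks 2.2.1 on mm10, per the submitters' processing notes, and RNA was extracted with TRIzol and sequenced from TruSeq libraries, per the labels' protocols. The annotation, strandedness and read length are not given in the sources used here. Absolute depth is unknown. The low values place the libraries at 0.806 to 1.01 times the depth of f/f replicate 1, summed FPKM was 500764 to 549263, and 15431 to 15680 genes were above 0 in each.

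Groups and replicate numbers came from the sample titles. The members and lists were chosen with earlier results of these data known. Genes with at least 1 FPKM in at least 3 libraries (12640) were compared as log2(FPKM + 1) with limma 3.58.1 in R 4.3.3 (group as the only term, mean-variance trend), with two-sided p-values adjusted by Benjamini-Hochberg over all tested genes and a threshold of 0.05. The fit was tested on simulated data. The scale understates changes of low genes. Standard errors are those of limma, and groups do not overlap where every library of a group lies above every library of the other. All 45 members are accounted for, with values in every library for the Gstm genes, for members without overlap or with a log2 change of at least 0.5 in size, for Nfe2l2 and Keap1, and for further members shown because a library stood apart, which were chosen after their values were seen. From each related list the 2 tested genes with the largest change are named. Of the gene identifiers, 20558 were found in GENCODE M21, which gave positions and transcripts. RefSeq windows came from GRCm38.p6, and motifs were searched with Python 3.11.15. Alternatives were upper-quartile scaling, quantile normalization, centring on the median, no filter, 1 FPKM in every library, a pseudocount of 0.1, no trend, an adjusted p of 0.1, array quality weights, a replicate block and leaving out each library.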

Additional observations from a re-analysis of the deposited data

How the results depend on the processing

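With all libraries limma called 0 genes (630 at an unadjusted p under 0.05), and it called 316 with array quality weights, 0 to 12 when a library was left out (12 without d/d replicate 2) and 0 under each other alternative. Genes at an unadjusted p under 0.05 numbered 3730 with array quality weights, and 1726, 1403 and 352 without d/d replicates 2, 3 and 1 and 359, 472 and 353 without f/f replicates 1, 2 and 3. The median log2 change was 0.07 for the Gstm genes and -0.00072 to 0.37 when a library was left out, and for the other members 0.12 and -0.036 to 0.19, with 0.37 and -0.036 reached without d/d replicate 2. Without d/d replicate 2 the members without overlap numbered 15 of 42 in place of 4, while the share over all tested genes went from 10.7% to 17.4% higher and 14.4% lower, an alternative chosen after seeing the data. Gstm7 stayed between 1.21 and 1.67 and Gstm5 between 0.51 and 0.66 when a library was left out, and Nat10 between -1.28 and -0.95. Genes at an unadjusted p under 0.05 were 339 higher and 291 lower, but upper-quartile scaling gave 232 and 399, quantile normalization 259 and 414, and centring on the median 248 and 376. Same-numbered libraries did not deviate together (correlations of -0.34, -0.03 and 0.10), and those of different number ran from -0.24 to 0.27. With 3 libraries a group these correlations cannot show whether the numbers pair the libraries. With the replicate block, 0 genes were called, 726 had an unadjusted p under 0.05 (420 higher, 306 lower) and the medians were 0.07 and 0.12. The number of libraries and the unknown depth limit what can be read from genes near 1 FPKM. The cause of these shifts was not tested.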
